A study of Mus musculus with 11 samples.

Results

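The mouse genes named Zfp with a number encode zinc finger proteins, and 245 of them were examined here in embryonic fibroblasts that carried 2, 1 or no intact copies of the β-actin gene Actb. They were chosen by name and level. Of 367 Zfp symbols in the deposited tables (46469 symbols in all), 245 had a mean FPKM of at least 2 over the 11 libraries, 122 lay under that level and 9 further symbols with a -ps or -rs ending were left out. FPKM is the fragment count corrected for transcript length and for the fragments mapped in the library. The 3 symbols just inside the level were Zfp658 (mean 2.03 FPKM), Zfp563 (2.06) and Zfp668 (2.08), and the 3 just outside were Zfp526 (1.96), Zfp780b (1.96) and Zfp72 (1.99). The choice used the mean over all libraries and no difference between genotypes. A mean over all groups can still admit a gene through the group where it is high. In 25 of the 245 genes at least 1 group had a mean under 2 FPKM, among them Zfp618, Zfp13, Zfp286, Zfp429 and Zfp874a. Counts over all Zfp genes are therefore also given for the 220 genes at 2 FPKM or more in each group. Counts by protein class and by cluster are not, and they include genes admitted in this way.

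Poly(A) RNA had been sequenced from wild-type cells (Actb +/+, WT, 4 libraries), heterozygous cells (Actb +/-, Het, 4 libraries) and knockout cells (Actb -/-, KO, 3 libraries), to ask how gene expression depends on the number of β-actin genes. All were fibroblasts from BALB/c embryos of day 10.5, grown in serum and harvested at 70% confluence. The submitters excluded 1 KO library after quality control, and the remaining KO libraries are numbered 1, 3 and 4. The replicates are called biological, but separate embryos or cultures are not named, so p-values measure only the spread between these samples, which may be technical.

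A C2H2 zinc finger is a short loop held together by a zinc ion that reads a few bases of DNA, and arrays of such fingers recognise longer sites. The largest mammalian family adds a KRAB box, which recruits the co-repressor TRIM28 and, through it, histone H3K9 methylation and DNA methylation, and many of its members silence transposable elements or guard imprinted genes. KRAB zinc finger genes arose by repeated duplication and lie in clusters, several of which are themselves packed in heterochromatin. CCCH zinc finger proteins, which share the Zfp name, bind RNA instead.

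Scaling factors separated KO from the other genotypes, at 0.937 to 0.96 in the KO libraries and 0.994 to 1.04 in all WT and Het libraries. Relative depth, read from the spacing of the lowest FPKM values, ran from 60.7% (WT 3) to 125% (WT 4) of WT 1. The Cufflinks interval around a Zfp gene had a median half-width of 13.9% to 20.9% of its value per library. Actb itself measured 1325 ± 199.6 scaled FPKM in WT (SD, n = 4). It measured 837 ± 24 in Het (SD, n = 4) and was 45.8 ± 1.27 in the knockout (SD, n = 3), in the order of the labels. The 8 fibroblast markers summed to 1468 to 1922 FPKM in WT, 2307 to 2626 in Het and 3577 to 4228 in KO. Vim, Fn1, S100a4 and Col1a1 made up most of these sums, and the markers did not all follow their order. Col1a2 averaged 6.86 in WT, 193 in Het and 11.5 in KO, Pdgfra 0.212, 4.33 and 0.964, and Thy1 0.0248, 0.667 and 2.21. Markers of endothelium, blood, skeletal muscle and pluripotent cells summed to at most 4.64 FPKM in any library. Epithelial markers, mostly Krt18, summed to 1.93 to 2.65 in WT, 5.36 to 9.05 in Het and 0.756 to 0.835 in KO. The 4 neural markers, 2 of them under 0.1 FPKM, summed to 10.4 to 19.5 in WT, 22.2 to 29.3 in Het and 23.1 to 25.5 in KO. The other 2 differed in pattern: Tubb3 averaged 10.9 in WT, 24.6 in Het and 13.6 in KO, and Map2 3.26, 0.596 and 10.6. These marker sums moved with genotype, and their part in the results below was not tested. Xist, the RNA made from an inactive X chromosome, read 44.0 to 51.5 FPKM in the Het libraries and at most 0.0585 in all WT and KO libraries. Genotype and this X state cannot be told apart in comparisons with Het.

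Zfp genes were expressed at modest levels, with a median of 5.36 FPKM against 11 for the 14948 genes tested. Their levels ran from 2.03 to 127 FPKM, 54 reached 10 FPKM and 13 reached 20. The highest was Zfp207, which encodes a spindle assembly factor that binds microtubules. It read 140.4, 136, 137 and 124 scaled FPKM in WT, 117, 119.6, 112 and 107 in Het and 145, 139 and 120.5 in KO. All Het libraries lay below all WT and all KO libraries, and WT and KO overlapped. The next highest were Zfp706 (54.9 FPKM), Zfp91 (50.3), Zfp36l2 (45), Zfp664 (40.2), Zfp740 (40.1), Zfp106 (39.6), Zfp326 (27.9), Zfp637 (26.3) and Zfp330 (26.1).

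Differences between genotypes were tested with limma on log2(scaled FPKM + 1) over all genes tested, with Benjamini-Hochberg adjustment and a threshold of 0.05 on the adjusted p. All differences below are on that log2 scale, where the change of a low gene comes out too small, and all 245 Zfp genes passed the filter on low values. "Rose" and "fell" are used for genes past the threshold. In bulk RNA, fewer cells of a type and less RNA per cell cannot be told apart.

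In KO against WT, 46 Zfp genes rose and 37 fell, 33.9% of the 245, whereas 47.1% of all genes tested were called (23.3% higher and 23.8% lower). The median absolute difference was 0.20 for the Zfp genes and 0.29 for all genes. The signed medians were both 0.01. Called changes of at least 2-fold in scaled FPKM + 1 were made by 7 Zfp genes (5 higher, 2 lower), against 7.57% of all genes. In scaled FPKM itself other genes passed 2-fold, such as Zfp185 (mean 4.72 in WT and 2.17 in KO). All KO libraries lay above all WT libraries for 45 Zfp genes (22.8% of all genes did so) and below them for 38 (23.6%). Of the 220 genes at 2 FPKM in each group, 42 rose and 30 fell, 4 and 0 of them at least 2-fold in scaled FPKM + 1. The split moved with the scaling, for the Zfp genes as for all genes. Without scaling, 32 Zfp genes were higher and 59 lower (35.2% of calls higher, from 55.4%), and all genes gave 2748 and 4653 (37.1%, from 49.4%). With upper quartile scaling the Zfp genes gave 34 and 39 (46.6%) and all genes 2936 and 3857 (43.2%). Leaving out KO 4 reduced the genes that fell to 22.

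The genes that rose most in KO were mostly zinc finger genes without a KRAB box (Zfp651, Zfp358, Zfp532, Zfp618 and Zfp827), followed by the RNA-binding Zfp36l1 and Zfp36l2. Zfp651 (chromosome 9, 121758638 to 121771742, 7 fingers matched) read 1.78, 2.72, 1.89 and 3.53 scaled FPKM in WT, 1.6, 1.67, 2.42 and 2.69 in Het and 5.91, 8.0 and 9.69 in KO. Every KO library was above every other library, and WT and Het overlapped. The difference of KO from WT was 1.35 (SE 0.21, adjusted p = 0.0003, limma).

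Zfp532 encodes a chromatin-associated partner of the reader protein ZMYND8. It read 2.17, 2.73, 2.23 and 2.91 in WT, 2.66, 2.71, 3.10 and 2.78 in Het and 6.67, 7.69 and 8.20 in KO. The KO libraries again stood above all others (KO against WT 1.28, SE 0.10, limma adjusted p = 1.94e-06; KO against Het 1.16, adjusted p = 4.89e-06), and Het did not pass against WT (0.12, adjusted p = 0.314). Zfp358 read 6.34, 6.36, 6.03 and 9.80 in WT, 8.32, 8.41, 9.86 and 9.15 in Het and 18.7, 17.7 and 19.7 in KO. WT 4 was above the other WT libraries and inside the Het range, and below all KO values.

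A graded pattern, with Het above WT and KO above Het, was measured for Zfp618, Zfp827, Zfp36l1 and Zfp36l2. It was not particular to them, as the groups of Zfp410 and Zfp449 also lay in this order without overlap. Zfp827, known for bringing the NuRD complex to telomeres, read 2.62, 2.62, 2.47 and 2.82 in WT, 4.83, 4.48, 4.26 and 4.30 in Het and 6.71, 6.89 and 6.25 in KO. The 3 groups did not overlap, and each step passed the test (Het against WT 0.59, adjusted p = 3.65e-05; KO against Het 0.48, adjusted p = 0.000246; limma). Zfp618, whose product binds hydroxymethylated DNA, read 1.27, 1.46, 1.38 and 1.49 in WT, 2.22, 1.82, 2.32 and 2.11 in Het and 3.83, 4.68 and 4.08 in KO, also without overlap.

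The largest falls in KO were those of the KRAB genes Zfp13 and Zfp286. Zfp13 (chromosome 17, 23575844 to 23599516, 8 fingers matched) read 3.30, 3.63, 3.11 and 4.52 in WT, 3.49, 3.91, 3.48 and 3.57 in Het and 0.167, 0.241 and 0.562 in KO. WT and Het overlapped, and KO lay far below both (KO against WT -1.81, SE 0.12, limma adjusted p = 7.4e-07; Het against WT 0.00, adjusted p = 0.998). Zfp286 (chromosome 11, 62778387 to 62789483) read 3.49, 3.08, 4.34 and 3.07 in WT, 3.03, 2.68, 2.05 and 2.21 in Het and 0.686, 0.683 and 0.825 in KO. Each Het library was above each KO library and below each WT library. KO differed from WT by -1.37 (adjusted p = 6.34e-06, limma). Het differed from WT by -0.36 (adjusted p = 0.0243), a call that was lost when WT 3, Het 3 or Het 4 was left out.

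Other members that fell in KO without overlap were Zfp429 (-0.90), Zfp185 (-0.85), Zfp335os (-0.81), Zfp37 (-0.78), Zfp672 (-0.67), Zfp748 (-0.66), Zfp433 (-0.65) and Zfp867 (-0.58). Zfp335os (chromosome 2, 164911349 to 164921265) is an antisense locus that meets the naming rule. It overlaps Zfp335 (164891882 to 164911750) over a small part of its length. Without knowledge of strand use in the counting, reads from that shared part cannot be told apart. Zfp185 is a LIM domain protein that associates with the actin cytoskeleton and had no C2H2 finger in its reading frame. Zfp185 read 5.54, 4.52, 4.77 and 4.07 in WT, 2.07, 1.92, 2.36 and 2.61 in Het and 2.66, 2.05 and 1.80 in KO. Het and KO overlapped below all WT libraries, with Het at -0.82 (adjusted p = 0.000169, limma) and KO at -0.85 (adjusted p = 0.000172) from WT. It is 1 of 4 members on the X chromosome, where Zfp275, Zfp280c and Zfp449 differed in KO from WT by 0.35, 0.18 and 0.54.

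**Figure D1:**
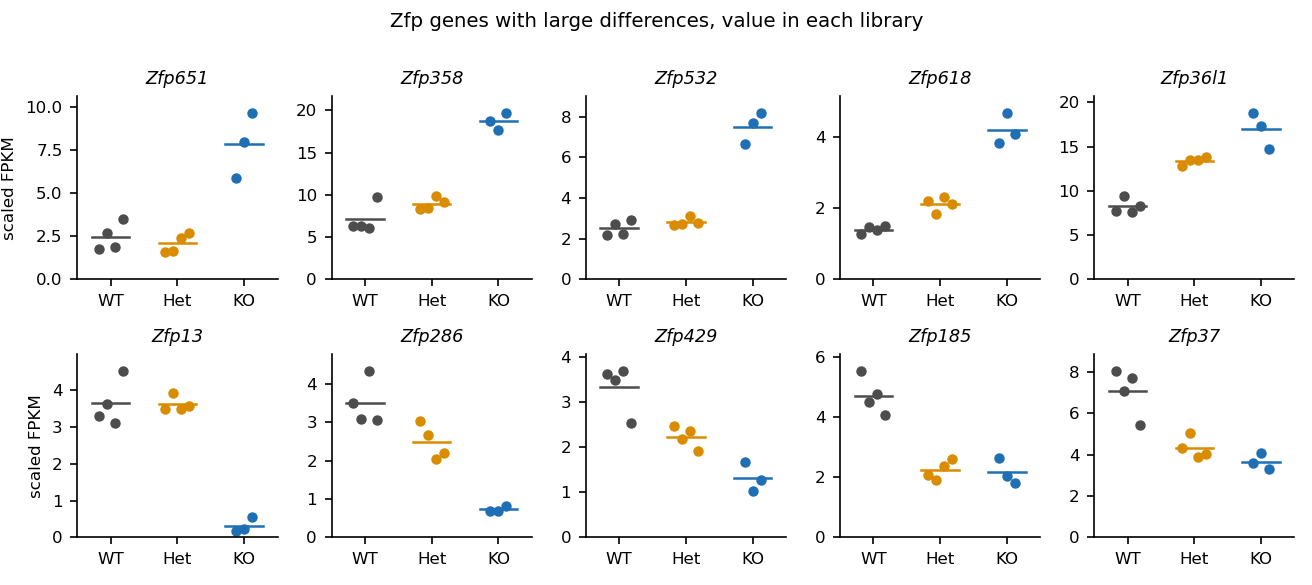
Scaled FPKM (linear axis from 0) of 10 Zfp genes in WT, Het and KO, where each point is 1 library and each line a group mean (4, 4 and 3 libraries). In the upper row all KO points lie above the WT points, and in the lower row all KO points lie below them, for Zfp13 at 0.167 to 0.562 against 3.11 to 4.52.

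In Het against WT, 68 Zfp genes rose and 26 fell, or 38.4% of the 245, whereas 43.8% of all genes tested were called (21.7% higher and 22.1% lower). The median difference was 0.09 for the Zfp genes and 0.01 for all genes. Called changes of at least 2-fold in scaled FPKM + 1 were made by 2 Zfp genes, both higher, against 4.66% of all genes. In scaled FPKM itself Zfp185 fell more than 2-fold, from a mean of 4.72 in WT to 2.24 in Het. The Het libraries lay above all WT libraries for 59 Zfp genes (19.4% of all genes) and below them for 22 (20%). Of the 220 genes at 2 FPKM in each group, 59 rose and 23 fell. Leaving out Het 4 reduced the genes that fell to 16 and leaving out Het 3 to 17, and upper quartile scaling gave 64 higher and 16 lower.

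The genes that led the rise in Het were Zfp524, Zfp365, Zfp704, Zfp395 and Zfp516, followed by Zfp442 and Zfp282. Zfp365, a partner of the neurodevelopmental protein DISC1, read 3.81, 3.84, 3.30 and 3.41 in WT, 7.68, 9.07, 8.54 and 7.82 in Het and 5.90, 6.58 and 6.64 in KO. The groups did not overlap, and KO lay between WT and Het (Het against WT 1.01, SE 0.08, limma adjusted p = 1.98e-06; KO against WT 0.68, adjusted p = 4.89e-05). Zfp704 read 6.23, 5.44, 5.09 and 5.03 in WT, 10.1, 10.0, 10.0 and 8.42 in Het and 5.31, 5.39 and 5.34 in KO. WT and KO overlapped and the Het libraries stood apart (0.72 from WT, adjusted p = 3.53e-05, limma).

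Zfp516, a regulator of the brown fat programme, rose in both (Het against WT 0.69 and KO against WT 0.59, limma adjusted p = 0.000562 and 0.00206). Zfp524 had the highest difference of Het (1.03, SE 0.28, limma adjusted p = 0.0112) on a wide WT spread, with 0.861, 2.52, 0.907 and 3.29 in WT and 4.28, 4.29, 4.43 and 5.15 in Het. WT 1 and WT 3 were low and WT 2 and WT 4 were higher, all below Het.

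Among the genes that fell in Het, Zfp605 and Zfp91 were low in Het alone. Zfp605, a KRAB gene, read 5.09, 4.67, 4.86 and 4.61 in WT, 2.42, 2.79, 2.80 and 2.68 in Het and 5.87, 5.92 and 5.58 in KO. Het lay below both other groups without overlap (-0.66 from WT, limma adjusted p = 1.32e-05; KO against Het 0.89, adjusted p = 2.18e-06). Zfp91, an E3 ubiquitin ligase, read 64.6, 56.2, 59.2 and 48.1 in WT, 39.8, 41.9, 39.1 and 35.1 in Het and 59.9, 57.8 and 53.2 in KO. Het was again below all other libraries (-0.53 from WT, adjusted p = 0.000691, limma), and KO was within the WT range. Zfp207 fell in Het by 0.23 on the log2 scale (limma adjusted p = 0.0179), which did not pass without Het 4.

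In KO against Het, 28 Zfp genes were higher and 51 lower, 32.2% of the 245, whereas 44.2% of all genes tested were called (22% higher and 22.2% lower). The median was -0.10 for the Zfp genes and 0.01 for all genes. Called changes of at least 2-fold in scaled FPKM + 1 were made by 4 Zfp genes (2 higher, 2 lower), against 6.41% of all genes. KO libraries lay above all Het libraries for 42 Zfp genes (27.2% of all genes) and below them for 76 (26.7%). Of the 220 genes at 2 FPKM in each group, 26 were higher and 41 lower. Without scaling the split was 16 higher and 84 lower, where all genes gave 2571 and 4479, and with upper quartile scaling it was 16 and 63, where all genes gave 2610 and 3820. Leaving out KO 3 reduced the higher genes to 17. The comparisons share libraries, so their counts are not independent of each other.

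Higher in KO than in Het were Zfp651 (1.51), Zfp532 (1.16), Zfp358 (0.99), Zfp503 (0.90), Zfp605 (0.89) and Zfp462 (0.82). Zfp462 encodes a large protein that acts with heterochromatin. It read 3.14, 3.04, 3.34 and 3.20 in WT, 2.47, 2.5, 2.34 and 2.28 in Het and 5.14, 5.21 and 4.66 in KO. Its groups did not overlap, with Het lowest and KO highest (KO against Het limma adjusted p = 4.01e-06). Zfp442, a KRAB gene with 17 fingers matched, read 3.15, 2.93, 2.87 and 1.86 in WT, 4.36, 5.42, 4.81 and 4.61 in Het and 3.10, 2.08 and 2.0 in KO. It was high in Het only, and WT and KO overlapped (KO against WT -0.12, adjusted p = 0.528, limma).

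Protein class was read from reading frames of the annotated transcripts, which 241 of the 245 genes had. Fingers were counted in the longest frame of a gene. The KRAB box was sought in the longest frame of each of its transcripts, so the box and the fingers can come from different transcripts. A KRAB box together with C2H2 fingers was matched in 129 genes, with 2 to 23 fingers and a median of 12. A further 70 had 5 or more C2H2 fingers and no KRAB box, and 32 had 1 to 4. Another 4 matched a CCCH pattern and no C2H2 finger. In 5 no finger was matched (Zfp185, Zfp365, Zfp503, Zfp703 and Zfp839), and Zfp781 had a KRAB box alone. KRAB genes were the lower expressed class, with a median of 4.52 FPKM and a highest value of 17.2, against 7.37 and 127 for the other 106 finger genes.

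Counts by class are set side by side here. Of the 129 KRAB genes, 14 rose and 25 fell in KO against WT (median -0.05), 31 rose and 11 fell in Het against WT (median 0.08), and 6 were higher and 37 lower in KO against Het (median -0.15). Of the 106 finger genes without a KRAB box, 28 rose and 8 fell in KO against WT (median 0.11), 35 rose and 11 fell in Het against WT (0.14), and 18 were higher and 12 lower in KO against Het (0.01). Of those, the 70 with 5 or more C2H2 fingers gave 22 higher and 6 lower in KO against WT and 25 higher and 4 lower in Het against WT. Against all genes tested, of which 23.3% were higher and 23.8% lower in KO against WT, the KRAB shares were 10.9% and 19.4%, both under the background, and those of the other finger genes 26.4% and 7.55%. In Het against WT the KRAB shares were 24% and 8.53% and the others 33.0% and 10.4%, beside 21.7% and 22.1% of all genes. In KO against Het they were 4.65% and 28.7%, and 17% and 11.3%, beside 22% and 22.2%. No test of the difference between classes was made. The KRAB counts include genes under 2 FPKM in KO that met the level through other groups, among them Zfp13, Zfp286 and Zfp429.

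Scaling and single libraries moved the KRAB counts. In KO against WT the KRAB genes gave 8 higher and 36 lower without scaling and 8 and 27 with upper quartile scaling, and in KO against Het they gave 1 and 56, and 1 and 45. All genes also moved down under these settings, to 2748 and 4653 and to 2936 and 3857 in KO against WT, and to 2571 and 4479 and to 2610 and 3820 in KO against Het. Without KO 4, 14 KRAB genes fell in KO against WT, and without KO 3, 24 were lower in KO against Het. In Het against WT, 19 fell without WT 4 and 7 without Het 3. The KRAB genes that rose in KO numbered 7 without KO 3, 8 without KO 1 or WT 2 and 9 without KO 4.

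The KRAB genes also varied between libraries of 1 group. Their median deviation from the mean of all libraries was 0.13, -0.04, -0.01 and -0.16 in WT 1 to 4, 0.08, 0.13, 0.06 and -0.01 in Het 1 to 4 and -0.04, -0.07 and -0.11 in KO 1, 3 and 4. No library lay outside the range of WT 1 and WT 4, and every KO library was below 0. The finger genes without KRAB lay at -0.09, -0.06, -0.12 and -0.05 in WT, 0.03, 0.03, 0.06 and 0.01 in Het and 0.02, 0.05 and 0.02 in KO, so all WT libraries were below all others. In each genotype the KRAB value was lowest in the library numbered 4. WT 4 had the highest relative depth (125%) and WT 3 the lowest. The part of depth or of library number in these values was not tested.

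**Figure D2:**
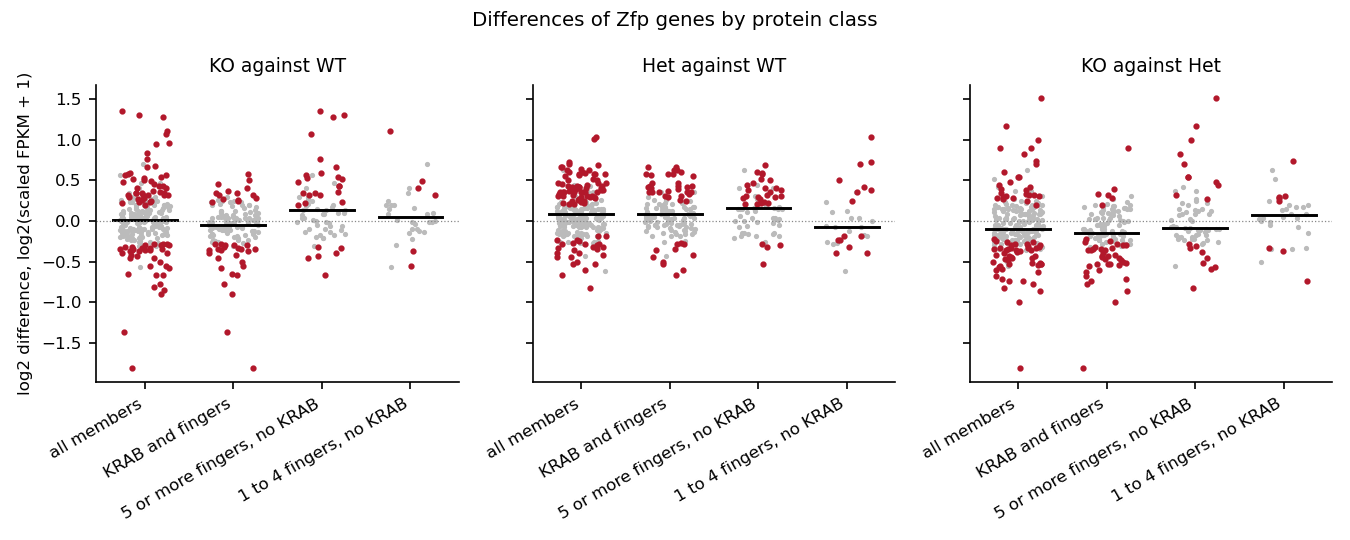
Log2 difference of each Zfp gene (point) in the 3 comparisons, for all 245 and for 3 protein classes, with red for adjusted p under 0.05 and a black line at the median. The KRAB genes have medians of -0.05, 0.08 and -0.15, and the genes with 5 or more fingers and no KRAB box 0.13, 0.16 and -0.08.

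**Figure D3:**
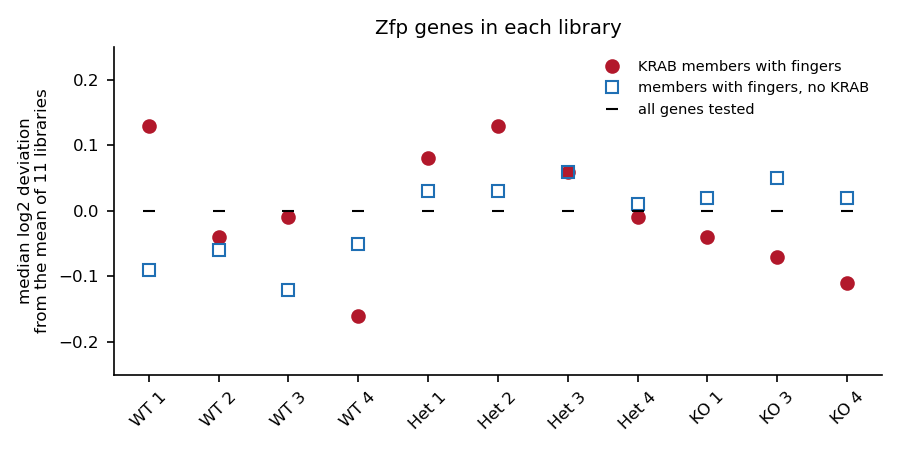
Median log2 deviation of KRAB genes (filled circles), of other finger genes (open squares) and of all genes tested (dashes) in each library, from the mean of 11 libraries. KRAB genes run from 0.13 in WT 1 to -0.16 in WT 4, and the other finger genes are below 0 in all WT libraries only.

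Among KRAB proteins with known targets, Zfp57 and Zfp445 protect imprinted methylation, Zfp809 and Zfp932 silence endogenous retroviruses and Zfp568 represses a placental transcript of Igf2. Zfp57 read 12.6, 11.1, 10.8 and 10.9 in WT, 15.0, 12.5, 12.8 and 9.96 in Het and 15.7, 17.2 and 14.8 in KO. It rose in KO without overlap with WT (0.45, SE 0.11, limma adjusted p = 0.00771), and its value sums 4 loci of the tables. Zfp445 read 21.9, 20.05, 19.8 and 16.2 in WT, 17.2, 16.0, 16.0 and 14.3 in Het and 17.3, 15.5 and 14.8 in KO. WT 4 overlapped both other groups. The falls in KO (-0.28, limma adjusted p = 0.0417) and Het (-0.28, adjusted p = 0.0333) were each lost without WT 1, WT 2 or WT 3 and under several other settings.

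Zfp809 did not pass in any comparison (KO against WT -0.31, SE 0.15, limma adjusted p = 0.11), nor did Zfp568 (0.20, adjusted p = 0.0734). Zfp932 did not pass in KO against WT (-0.27, adjusted p = 0.0753). In KO against Het it was at -0.32 (limma adjusted p = 0.0391), a call lost in 8 of 22 alternatives. These were no filter and leaving out WT 2, any KO library or any Het library but Het 3. Of the KRAB co-repressor machinery, Trim28 averaged 74.0 scaled FPKM in WT, 100.2 in Het and 89.6 in KO and rose in both (0.44 and 0.28, limma adjusted p = 0.000803 and 0.0156). Over the 27 listed genes of that silencing pathway, 7 rose and 6 fell in KO against WT (median 0.07), 10 rose and 4 fell in Het against WT (0.15), and 4 were higher and 8 lower in KO against Het (-0.14). The shares called were 48.1%, 51.9% and 44.4% in these comparisons, beside 47.1%, 43.8% and 44.2% of all genes. Over the 3 comparisons the largest called differences were those of Mphosph8 of the HUSH complex (KO against WT -0.73), the remodeller Smarcad1 (Het against WT 0.69) and the H3K9 methyltransferase Suv39h1 (KO against Het -0.65).

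The RNA-binding CCCH members Zfp36, Zfp36l1 and Zfp36l2 promote decay of messages with AU-rich elements. Zfp36l1 read 7.71, 9.43, 7.56 and 8.26 in WT, 12.8, 13.5, 13.5 and 13.8 in Het and 18.8, 17.4 and 14.8 in KO. Zfp36l2 read 37.5, 32.4, 34.3 and 28.9 in WT, 43.1, 45.9, 42.6 and 39.0 in Het and 67.6, 62.4 and 65.0 in KO. For both genes the 3 groups did not overlap and rose in order (KO against WT 0.96 and 0.95, limma adjusted p = 9.66e-06 and 5.95e-06). The step from Het to KO of Zfp36l1 (0.31, adjusted p = 0.0163) was lost without scaling, with upper quartile scaling, and without KO 1 or KO 3. Zfp36 lay at 2.92, 2.12, 2.85 and 5.10 in WT and 3.79, 4.88 and 5.39 in KO, and with WT 4 inside the KO range its difference of 0.46 did not pass (adjusted p = 0.0757). Zfp330 was at -0.18 (limma adjusted p = 0.0923). It was placed in the class by a match to a CCCH pattern alone, which does not show that it binds RNA.

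The Nlz repressors Zfp503 and Zfp703 were both higher in KO. Zfp703 read 4.21, 5.03, 4.72 and 5.83 in WT, 6.02, 7.38, 8.5 and 6.63 in Het and 8.42, 9.68 and 10.5 in KO. Het and KO were above WT without overlap (0.45 and 0.83, limma adjusted p = 0.00859 and 0.000256). Zfp503 read 3.19, 2.97, 3.22 and 4.41 in WT, 2.21, 2.43, 2.89 and 2.51 in Het and 5.16, 5.16 and 6.33 in KO. It was lowest in Het and highest in KO (KO against WT 0.56, limma adjusted p = 0.00266). The fall in Het (-0.33, adjusted p = 0.0316) was lost without WT 4, Het 1, Het 2 or Het 4.

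Of other members with known roles, Zfp217, found in co-repressor complexes, rose in Het (0.47, limma adjusted p = 0.00112) and was near WT in KO (-0.06, adjusted p = 0.636). Zfp281, a regulator of pluripotent cells, read 12.7, 10.0, 11.1 and 9.49 in WT, 14.5, 14.9, 15.1 and 14.7 in Het and 12.1, 11.9 and 10.7 in KO. All Het libraries were above all others (0.42 from WT, limma adjusted p = 0.00186), and KO lay inside the WT range. Zfp148, which binds GC-rich promoter DNA, did not pass (KO against WT -0.10, adjusted p = 0.465). Zfp423 (0.0367 FPKM) and Zfp521 (1.46), both of fat cell fate, and Zfp42 (listed at 0), a pluripotency marker, were under the level.

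Related families without a Zfp name were counted for comparison. Of 38 tested Zbtb genes, which join a BTB domain to zinc fingers, 14 rose and 4 fell in KO against WT (median 0.18) and 11 rose and 3 fell in Het against WT (0.17). The shares called were 47.4% and 36.8%, beside 47.1% and 43.8% of all genes. Zbtb38 had the largest difference, falling to 4.66 scaled FPKM in Het and reaching 14.4 in KO from 8.23 in WT (KO against Het 1.44, limma adjusted p = 1.52e-07). Of 16 tested SCAN domain Zkscan and Zscan genes, 1 rose and 3 fell in KO against WT (median -0.09), or 25% called. Zscan22 fell from 2.37 in WT to 0.301 in KO (-1.37, limma adjusted p = 7.95e-07).

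Zfp loci linked by gaps of at most 500 kb gave 12 clusters with at least 4 members. They held 89 of the 245 genes, 74 of them KRAB genes. These include genes under 2 FPKM in a group, such as Zfp13, Zfp429 and Zfp874a, whose admission favours a low value in that group. In the clusters 12 rose and 15 fell in KO against WT, 24 rose and 5 fell in Het against WT, and 1 was higher and 23 lower in KO against Het. The 156 genes outside gave 34 and 22, 44 and 21, and 27 and 28. The shares in the clusters were 13.5% higher and 16.9% lower in KO against WT (all genes 23.3% and 23.8%), 27% and 5.62% in Het against WT (21.7% and 22.1%), and 1.12% and 25.8% in KO against Het (22% and 22.2%). The lower share in KO against Het was thus near the background. The medians in KO against Het were -0.16 inside and -0.01 outside.

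**Figure D4:**
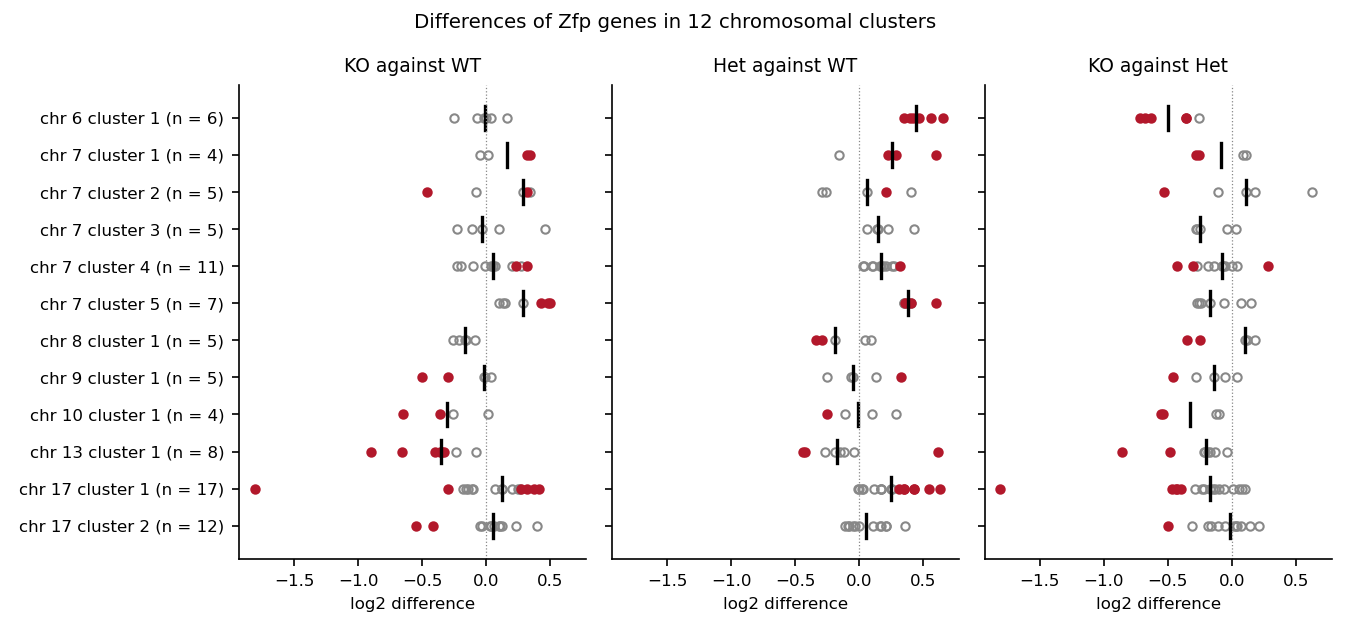
Log2 difference of each Zfp gene in the 12 chromosomal clusters, 1 row per cluster, numbered along each chromosome, with filled red points for adjusted p under 0.05, open points otherwise and a black bar at the median. The chromosome 6 cluster has a median of 0.45 in Het against WT and -0.49 in KO against Het, and the chromosome 13 cluster -0.36 in KO against WT.

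The chromosome 6 cluster (47819263 to 48623227 on GRCm38) held 6 members, all KRAB genes, and all of its members are described here, also those outside the naming rule. Each of the 6 rose in Het (median 0.45), 5 of 6 were lower in KO than in Het (median -0.49), and none passed in KO against WT (median -0.01). The 6 calls in Het stood at 6 when any single library was left out, and the lower calls of KO numbered 4 to 6. The 7 other genes tested in the span gave 3 higher and 1 lower in Het against WT (median 0.31). None of them was called in KO against Het (median 0.02). Of all genes tested, 21.7% were higher in Het against WT and 22.2% lower in KO against Het.

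Along the chromosome, Zfp398 read 1.88, 1.97, 2.48 and 2.06 in WT, 3.38, 3.26, 3.6 and 2.93 in Het and 1.25, 1.79 and 1.78 in KO. Zfp282 read 4.04, 6.22, 4.71 and 6.38 in WT, 8.59, 7.94, 9.77 and 9.37 in Het and 5.29, 5.00 and 5.22 in KO. In both genes every Het library stood above every other library (Het against WT 0.47 and 0.66, limma adjusted p = 0.00253 and 0.0012). Zfp956 read 2.56, 2.88, 2.37 and 3.12 in WT, 4.61, 4.68, 4.42 and 4.29 in Het and 2.82, 2.17 and 2.70 in KO, and Zfp777 read 7.73, 7.59, 7.30 and 6.91, then 10.3, 9.64, 9.91 and 10.3, then 8.24, 7.85 and 6.85. Both again had Het on top without overlap (0.56 and 0.40, adjusted p = 0.000393 and 0.000702). Zfp212 (0.42, adjusted p = 0.00627) was also above all WT libraries in Het. Zfp746 (0.35, adjusted p = 0.0129) overlapped because WT 4 read 7.06 and Het 1 read 6.81.

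The promoter of Zfp282, the gene of this cluster with the largest rise in Het, is printed from the RefSeq promoter table (GRCm38.p6, chr6:47877305-47877604, plus strand, 250 bases before to 50 after the start, 5′ to 3′). Capitals mark matches on either strand to the GC box GGGCGG and to the CCAAT box, none of which overlap.
Zfp282: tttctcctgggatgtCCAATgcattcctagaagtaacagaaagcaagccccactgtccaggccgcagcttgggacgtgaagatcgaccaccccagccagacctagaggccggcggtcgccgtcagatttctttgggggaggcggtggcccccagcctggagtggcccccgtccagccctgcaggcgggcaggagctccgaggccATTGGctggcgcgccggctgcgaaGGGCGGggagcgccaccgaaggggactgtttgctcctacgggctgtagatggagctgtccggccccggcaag
It held 1 GGGCGG and 2 CCAAT matches and 21 CG pairs. Of the 6 promoters of the cluster, GGGCGG was matched in 5 and CCAAT in 2. Among 27025 promoters, 1 per gene, GGGCGG was matched in 36% and CCAAT in 38.0%, and among the 199 promoters found for the 245 genes in 47.7% and 49.7%. The median number of CG pairs was 7 over all promoters, 15 over those of the Zfp genes and 12 over those of the KRAB genes.

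The chromosome 13 cluster (67038594 to 67827668) held 8 members, all KRAB genes, among 22 Zfp loci. In KO, 6 of the 8 fell against WT and all 8 had a negative difference (median -0.36). In Het, 2 fell and 1 rose (median -0.17). Without KO 4 the count that fell in KO was 3. The 6 other genes tested in the span gave 1 higher and 3 lower in KO against WT. Their median of -0.32 was close to that of the members. Of all genes tested, 23.8% were lower in KO against WT.

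Zfp429 had the largest fall of the cluster and read 3.62, 3.48, 3.69 and 2.54 in WT, 2.46, 2.18, 2.36 and 1.91 in Het and 1.68, 1.02 and 1.27 in KO. The 3 groups did not overlap and fell in order (Het against WT -0.42, adjusted p = 0.0145; KO against WT -0.90, adjusted p = 0.000175; limma). Zfp748 read 7.59, 6.17, 7.11 and 5.17 in WT, 4.96, 4.90, 4.40 and 3.79 in Het and 3.34, 4.05 and 3.77 in KO. It was below all WT libraries in both other groups, and Het and KO overlapped. Zfp65 (-0.40), Zfp87 (-0.36), Zfp58 (-0.35) and Zfp738 (-0.33) fell in KO with adjusted p between 0.0123 and 0.0271 (limma). WT 4 was the lowest WT library in each of these 6 genes. The loci of Zfp738 and Zfp65 share 19017 bases, and how reads there were divided is uncertain.

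Zfp874a and Zfp874b are neighbouring copies that differed in pattern. Zfp874a read 2.03, 1.73, 2.01 and 1.35 in WT, 3.17, 3.53, 3.05 and 3.23 in Het and 1.07, 2.0 and 1.05 in KO. It was high in Het without overlap (0.62 from WT, limma adjusted p = 0.0031; KO against Het -0.86, adjusted p = 0.000535). Its WT and KO means were under 2 FPKM, so Zfp874a met the level only through Het, which favours such a pattern. Zfp874b read 3.40, 2.62, 2.68 and 2.24, then 2.62, 2.84, 2.44 and 2.54, then 2.78, 2.48 and 2.27, with all groups overlapping (Het against WT -0.04, adjusted p = 0.771). Reads shared between such similar genes could have been split either way.

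The promoters of 7 of the 8 genes of this cluster were found, all on the minus strand, and each held the sequence GGGANNTGTAGTC. This pattern was sought after these promoters had been read, and it consists of the longest run that all 7 share (7 bases) and the 6 positions before it, with N where they vary. On either strand it was matched in 0.958% of all 27025 promoters, in 8.04% of the 199 Zfp promoters and in 12.6% of the 111 KRAB promoters. Outside the cluster it was matched in 6.73% of 104 KRAB promoters, in 4 of 10 promoters of the chromosome 7 cluster at 29.8 to 30.2 Mb and in none of the chromosome 6 cluster. In the cluster it began between -71 and -18 from the start of the gene and always ran in the gene's direction. Stretches of 40 bases are shown to compare the genes, with the match in capitals.
Zfp429: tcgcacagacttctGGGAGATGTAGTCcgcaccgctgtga
Zfp874a: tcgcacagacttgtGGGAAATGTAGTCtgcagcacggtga
Zfp874b: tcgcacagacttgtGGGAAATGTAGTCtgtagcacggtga
Zfp58: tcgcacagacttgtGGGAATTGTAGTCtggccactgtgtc
Zfp748: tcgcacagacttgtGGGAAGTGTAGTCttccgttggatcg
Zfp738: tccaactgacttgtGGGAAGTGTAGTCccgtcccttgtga
Zfp65: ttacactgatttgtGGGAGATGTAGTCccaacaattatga
These stretches lie at chr13:67399813-67399852 (Zfp429), chr13:67451632-67451671 (Zfp874a), chr13:67484263-67484302 (Zfp874b), chr13:67500528-67500567 (Zfp58), chr13:67553153-67553192 (Zfp748), chr13:67683543-67683582 (Zfp738) and chr13:67729166-67729205 (Zfp65). The 16 Zfp genes with the pattern gave 1 higher and 5 lower in KO against WT (median -0.09), and the 9 of them outside the chromosome 13 cluster 1 higher and none lower (-0.07). The 183 without it gave 32 and 25 (0.03).

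The whole promoters of Zfp874a and Zfp874b (chr13:67451575-67451874 and chr13:67484204-67484503, minus strand, GRCm38.p6) are printed because the genes differ in Het while their promoters share long runs, the longest of 45 bases. Capitals mark GGGANNTGTAGTC, TGACGTCA and, in Zfp874b, CCATNTT.
Zfp874a: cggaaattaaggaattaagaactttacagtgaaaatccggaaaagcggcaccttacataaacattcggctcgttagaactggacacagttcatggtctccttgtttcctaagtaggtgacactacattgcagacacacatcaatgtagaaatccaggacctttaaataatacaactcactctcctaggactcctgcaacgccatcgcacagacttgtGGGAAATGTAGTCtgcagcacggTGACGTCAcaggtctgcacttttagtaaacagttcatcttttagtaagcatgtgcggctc
Zfp874b: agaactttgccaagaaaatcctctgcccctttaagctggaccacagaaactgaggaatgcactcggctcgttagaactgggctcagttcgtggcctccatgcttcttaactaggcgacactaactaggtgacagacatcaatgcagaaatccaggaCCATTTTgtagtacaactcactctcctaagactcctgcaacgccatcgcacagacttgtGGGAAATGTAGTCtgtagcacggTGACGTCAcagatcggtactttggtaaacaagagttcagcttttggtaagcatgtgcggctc
TGACGTCA was matched in both, and in 1.86% of all promoters and 3.02% of the Zfp promoters. CCATNTT was matched in 16.3% of all promoters and 25.1% of the Zfp promoters. The TATA box TATAAA was matched in 14.1% of all and 7.04% of the Zfp promoters. A match describes the letters only.

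**Figure D5:**
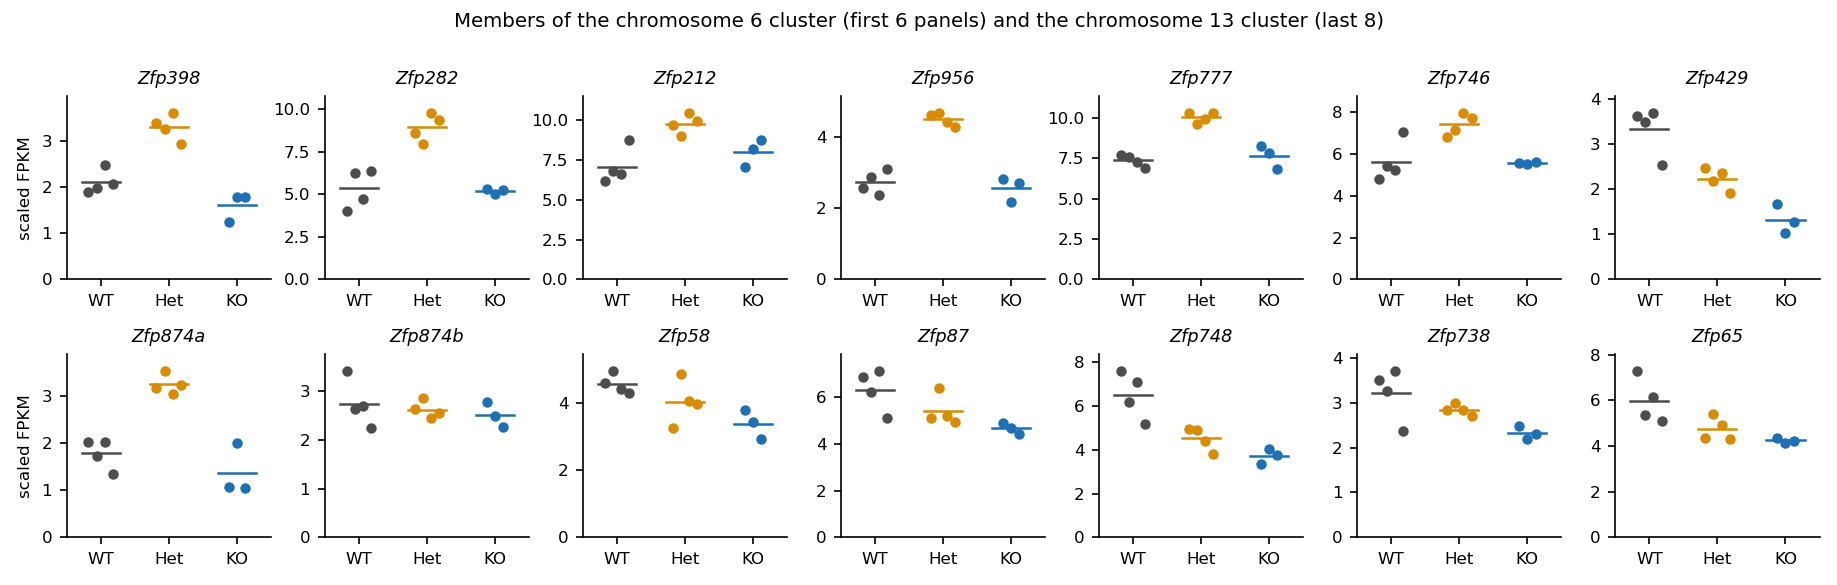
Scaled FPKM (linear axis from 0) of the 6 genes of the chromosome 6 cluster and the 8 genes of the chromosome 13 cluster, in chromosomal order, where each point is 1 library and each line a group mean. All 6 chromosome 6 genes have their highest mean in Het, and 7 of the 8 chromosome 13 genes have it in WT.

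On chromosome 17, the cluster from 21008941 to 23599516 had 17 members, all KRAB genes. In Het 7 rose and none fell (median 0.25, with 15 of 17 above 0), and in KO against Het 5 were lower (median -0.17). Of all genes tested, 21.7% were higher and 22.1% lower in Het against WT, and 22.2% were lower in KO against Het. In KO against WT 4 rose, among them Zfp54 (0.41) and Zfp53 (0.37), and 2 fell, among them Zfp13 at the end of the cluster. Of all genes tested, 23.3% rose and 23.8% fell in KO against WT, so the 4 of 17 that rose were near the background. The rise of Zfp54 in KO was lost without KO 4 and that of Zfp53 without WT 2, KO 1 or KO 3. The second cluster of the chromosome (32765496 to 33631716, 12 members) had 2 that fell in KO against WT, Zfp870 (-0.55, limma adjusted p = 0.0004) and Zfp952 (-0.42), the latter lost without WT 1, WT 2, WT 3, KO 3 or KO 4.

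The clusters of chromosome 7 had no fall in Het. Of all genes tested, 21.7% were higher and 22.1% lower in Het against WT, and 23.3% were higher in KO against WT. From 127233255 to 127885996, 4 of 7 members rose in Het (median 0.38) and 3 in KO (0.29), and all 7 were above 0 in both. The rise of Zfp688 in KO was lost in 11 of 22 alternatives, and those of Zfp553 and Zfp768 without KO 4. That of Zfp553 was also lost without scaling and with only 2 groups fitted. In Het the rise of Zfp768 was lost without WT 2, WT 3 or Het 4. Zfp553, which has no KRAB box, read 3.78, 4.81, 5.28 and 6.33 in WT, 7.73, 7.76, 7.90 and 8.88 in Het and 6.80, 6.63 and 7.86 in KO. Both groups were above WT without overlap. The 24 other genes tested in that span gave 5 higher and none lower in Het (median 0.22). From 12412548 to 12985717, 3 of 4 members rose in Het, led by Zfp606 (0.60, limma adjusted p = 0.000218). The rise of Zfp329 there was lost in 10 of 22 alternatives. From 29768552 to 30169779, all 11 members were above 0 in Het (median 0.17) but only Zfp146 passed (0.32, adjusted p = 0.00667). The remaining chromosome 7 clusters, of 5 members each, had at most 1 call in a direction.

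In the clusters of chromosomes 8, 9 and 10 no member rose in KO against WT, where 23.3% of all genes tested were higher and 23.8% lower. On chromosome 10 (81704194 to 82241318, 4 members) Zfp433 read 3.28, 2.83, 3.35 and 2.71 in WT, 2.72, 2.80, 2.89 and 2.5 in Het and 1.78, 1.69 and 1.27 in KO. KO was below both other groups, which overlapped (KO against WT -0.65, limma adjusted p = 0.000239). On chromosome 9 (20345136 to 20605404, 5 members) Zfp26 fell in KO (-0.50, limma adjusted p = 0.00321) and was near WT in Het (-0.05, adjusted p = 0.754). On chromosome 8 (69209046 to 69774911, 5 members) all 5 had a negative difference in KO against WT and none passed (median -0.17).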

How the data were processed

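The deposited FPKM and their intervals were estimated by the authors with Cufflinks 2.2.1 from reads placed by TopHat2 2.1.0 on GRCm38.p4, as the submitters' processing notes record per sample, with Cuffdiff named without a version. Read counts were not used here. FPKM of loci sharing a symbol were summed (8 of the 245 genes), and 31 names turned into dates were restored by taking the most frequent name over the tables. Library factors were medians of ratios to the mean profile (13981 genes). A gene entered the fit if 3 or more libraries reached 1 scaled FPKM (14948 genes), and log2(FPKM + 1) was fitted with limma 3.58.1 (R 4.3.3), 1 mean per group, all 11 libraries sharing the spread, with a mean-variance trend. The fit was also run on simulated data with independent noise and no scaling, a simpler setting than these libraries, and no result rests on it.

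Protein classes came from GENCODE M21 transcripts (GRCm38) and not, as planned, from a protein table, which was not used here. Fingers were C-X2-4-C-X12-H-X3-5-H, and a KRAB box was called at 9 or more of 17 A box positions, a level set after seeing the scores (5 genes at 9 or 10, 2 at 8). The motif GGGANNTGTAGTC was added to 5 others after reading promoters. Promoters are RefSeq's, 1 per symbol, with the start nearest the deposited locus.

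The genes and lists were chosen with earlier results of these data known. Named were the 10 highest genes, the 10 highest and 10 lowest called differences without overlap of KO against WT (6 and 6 in the other comparisons), up to 3 genes per cluster by KO difference, a list of known genes, the 3 symbols on each side of the level, and up to 3 genes per list. Alternatives were pseudocount, filter, scaling, moderation, replicate block, 2 groups only, primary loci, the level and the cluster gap, and leaving out each library.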

Additional observations from a re-analysis of the deposited data

Results flagged for a closer look

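In 162 groups of 4 libraries (WT and Het of 81 named genes), 5 had 1 library apart from the other 3 by Dixon's criterion, which chance alone does in about 1 in 20 groups. Zfp335os read 3.42 scaled FPKM in WT 3 and 4.62 to 4.85 in the other WT libraries. Zfp358 read 9.80 in WT 4 and 6.03 to 6.36 in the others. In Het 4, Zfp553 read 8.88 (others 7.73 to 7.90), Zfp704 read 8.42 (others 10.0 to 10.1) and Zfp869 read 11.8 (others 13 to 13.3). Het 4 held 3 of the 5.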

How the results depend on the processing

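Without read counts depth is known only in relative terms, and low FPKM genes are the least precise. No called result of a named gene reversed: over 136 results and 22 alternatives, 2736 kept direction and call, 256 fell short of the threshold, and 94 results were called throughout. Raising the level to 5 FPKM gave 27 higher and 20 lower in KO against WT, 31 and 15 in Het against WT, and 17 and 23 in KO against Het. Without scaling, the lower genes were 59 in KO against WT and 84 in KO against Het (16 higher), and KRAB genes gave 8 higher in KO against WT and 1 higher and 56 lower in KO against Het. Upper quartile scaling gave 16 lower in Het against WT, 16 higher in KO against Het, and 8 and 1 KRAB genes higher in KO against WT and KO against Het. KRAB genes higher numbered 9 in KO against WT with only 2 groups fitted, and 2 in KO against Het with no filter. The cause was not tested.

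Leaving out single libraries, the genes that rose and fell ranged over 32 to 54 and 22 to 54 in KO against WT, 51 to 69 and 16 to 35 in Het against WT, and 17 to 36 and 35 to 59 in KO against Het. KRAB genes ranged over 7 to 17 and 14 to 36, 25 to 34 and 7 to 19, and 1 to 8 and 24 to 42. The chromosome 13 count in KO ranged from 3 to 6. A cluster gap of 250 kb gave 11 clusters and 1 Mb gave 15. With the replicate block the counts were 48 and 38, 70 and 29, and 29 and 55. Libraries with equal numbers were not treated as paired, since 5 of 10 such pairs correlated above 0.1 and not all. The correlations ran from -0.101 to 0.352, with the 3 pairs numbered 4 at 0.254 to 0.352 and WT 1 with KO 1 at 0.332. Of 30 pairs with other numbers 5 were above 0.1, the highest at 0.18, and 6 of 11 libraries correlated best with their own number, so some sharing by number is a hint from the data.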
